A study of Mus musculus with 16 samples.

Results

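The Rtl1 antisense miRNAs are a group of small RNAs cut from hairpins within the imprinted Dlk1-Dio3 locus of mouse chromosome 12. The 9 members described here were chosen by name as the array design gives them: mmu-miR-337-5p, mmu-miR-337-3p, mmu-miR-431, mmu-miR-433, mmu-miR-127, mmu-miR-434-5p, mmu-miR-434-3p, mmu-miR-136 and mmu-miR-136*. They are 9 of the 650 miRNA names on the array and are read by 19 probes. All 9 counted as expressed, as did 281 miRNAs in all, because in 1 group or more the scanner software detected them on a share of 0.5 or more of its arrays. No measured value entered the choice by name, but it was made with earlier results of these data known.

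The arrays were made from whole sciatic nerves of mice bred from the floxed strain Dicer1tm1Bdh/J and Dhh-Cre mice. Mutants had 2 floxed copies of Dicer1 (Dicer fl/fl Dhh-Cre+), and controls had 1 floxed and 1 wild-type copy (Dicer wt/fl Dhh-Cre+), so that the controls too carried Cre and were heterozygous for the floxed allele. The Dhh promoter drives Cre in cells of the Schwann lineage, which also gives rise to some fibroblasts of the nerve, so Dicer, the enzyme that cuts miRNAs from their hairpins, was left intact in cells of other origin such as vessels, blood cells and axons. Each genotype was analyzed at embryonic day 17 (E17) and at postnatal day 4 (P4). Every group had 4 mice, each on 1 single-color Agilent array, 16 arrays in all. Because the nerve is a mixed tissue, fewer cells of a type and less RNA per cell cannot be told apart in any value given here.

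In the Dlk1-Dio3 locus, the chromosome inherited from the father expresses protein genes such as Dlk1 and Rtl1, and the chromosome inherited from the mother expresses long noncoding RNAs and many miRNAs. Rtl1 derives from a retrotransposon and is needed in the placenta, and the miRNAs described here lie on the opposite strand of it, which makes them fully complementary to its mRNA, so that they can direct its cleavage. They are best known from embryo, placenta, brain and muscle, and they are generally more abundant before birth than in the adult.

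The mature sequences are shown because they tell the members apart and because the probes read these short RNAs, including both arms of 3 hairpins. All 9 were found in the RefSeq table of assembly GRCm38.p6, in which array names without an arm were matched to the arm of the older nomenclature (mmu-miR-127 to mmu-miR-127-3p, mmu-miR-431 to mmu-miR-431-5p, mmu-miR-433 to mmu-miR-433-3p, mmu-miR-136 to mmu-miR-136-5p and mmu-miR-136* to mmu-miR-136-3p). They are written 5′ to 3′ in the order of their hairpins along the plus strand, with the seed, bases 2 to 8, in capitals.
mmu-miR-337-5p: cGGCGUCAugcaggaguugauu
mmu-miR-337-3p: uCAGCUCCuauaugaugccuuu
mmu-miR-431: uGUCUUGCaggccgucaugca
mmu-miR-433: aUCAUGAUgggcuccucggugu
mmu-miR-127: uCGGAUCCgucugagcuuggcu
mmu-miR-434-5p: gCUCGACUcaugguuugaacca
mmu-miR-434-3p: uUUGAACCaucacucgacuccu
mmu-miR-136: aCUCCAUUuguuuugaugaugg
mmu-miR-136*: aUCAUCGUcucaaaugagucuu

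The 9 seeds are all different, and none of them is shared with another of the 1679 mature mouse miRNAs in the table, so the members form no seed family. The longest run of bases common to any pair was 9, shared by miR-337-5p and miR-431 (cgucaugca) and by both arms of the miR-434 hairpin (uuugaacca). GC content ranged from 36.4% in both arms of miR-136 to 59.1% in miR-127. The 6 hairpins lie within 9600 bases, in the order Mir337 (chr12:109585789-109585885), Mir431 (chr12:109590447-109590537), Mir433 (chr12:109591715-109591838), Mir127 (chr12:109592846-109592915), Mir434 (chr12:109594506-109594599) and Mir136 (chr12:109595327-109595388), and all fall within the span that the annotation gives to Rtl1.

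The miR-434 hairpin, whose 3′ arm gave the largest difference between the genotypes at P4 after quantile normalization, carries both of its arms as members of the group, here in capitals within the plus strand sequence of the hairpin.
Mir434: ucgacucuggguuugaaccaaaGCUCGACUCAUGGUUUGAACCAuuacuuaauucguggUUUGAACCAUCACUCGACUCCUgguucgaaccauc

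Dicer1 mRNA was not measured by these arrays. As a check of the labels, the miRNAs listed for Schwann cells and myelinating glia (miR-338-3p, miR-338-5p, miR-138 and miR-219, the last undetected on every array) held 2.23 to 3.18% of the summed signal in controls at P4 and 0.214 to 0.323% in mutants. At E17 the genotypes overlapped in this share, with 0.854 to 1.35% in controls and 0.698 to 0.861% in mutants, so the check bears on the labels at P4 alone. Each slide held both genotypes but a single age, so age and slide cannot be told apart, and the genotypes were compared within a slide. Between 197 and 260 miRNAs were detected per array. For the 9 members, mutant replicate 3 at P4 was the lowest array of its group for 9 of 9, control replicate 3 at P4 for 8 and control replicate 1 at E17 for 8, and values without these arrays are given where they matter. The study's methods describe littermate pairs of mutants and controls at each age, but nothing in the labels says that same-numbered mice form these pairs, and the 4 samples of a group are separate mice.

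At P4, the Rtl1 antisense miRNAs took up more of the nerve's miRNA signal in mutants than in controls. This was first seen in the signals before any normalization between arrays, taken as the background-subtracted gene signal that the scanner software gives for each miRNA. The 9 members together held 1.46, 1.54, 1.35 and 1.54% of the summed signal of all miRNAs in the 4 controls at P4, and 3.11, 3.43, 2.75 and 3.27% in the 4 mutants. Every mutant lay above every control, with means of 1.47% ± 0.0897 and 3.14% ± 0.294 (SD, n = 4 each), a ratio of 2.13. When the median spot signals were summed with their background, the shares were 1.33% ± 0.0642 and 2.09% ± 0.219.

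The summed signal of the 9 members themselves overlapped between the genotypes at P4. It was 1982 ± 263.8 units in controls and 2204 ± 552.4 in mutants (SD, n = 4 each). What differed was the sum over all miRNAs, which ranged from 122860 to 154080 units in controls and from 56841 to 83630 in mutants. The larger share thus went with a smaller total and with a members' sum that ranged from 1780.1 to 2370 units in controls and from 1560.2 to 2870.3 in mutants. At E17 the share was 2.18% ± 0.405 in controls and 2.77% ± 0.184 in mutants, and the groups did not overlap, with 2.51% in the highest control and 2.56% in the lowest mutant. With summed median spot signals the groups overlapped at E17, from 1.32 to 1.73% in controls and from 1.55 to 1.77% in mutants.

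**Figure D1:**
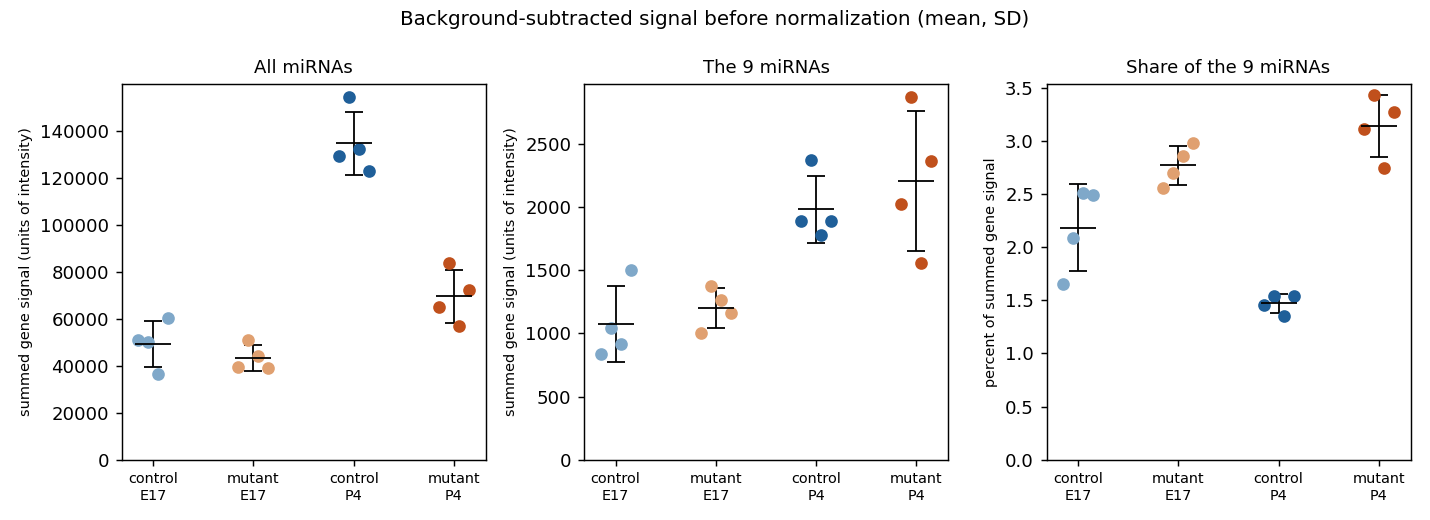
Summed background-subtracted gene signal of all miRNAs on the array, of the 9 Rtl1 antisense miRNAs, and the share of the latter in percent, before normalization between arrays. Points are single arrays, long ticks the group means and bars the SD (n = 4); at P4 the share was 2.75 to 3.43% in mutants and 1.35 to 1.54% in controls, while the sum of the 9 overlapped.

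The shares of the single members ran the same way. The share held by a single member was higher in every mutant than in every control at P4 for 9 of the 9, and this was so for 36.7% of the 281 expressed miRNAs. The ratio of the mean shares lay between 1.76 for miR-431 and 2.59 for miR-136. The mean share was higher in mutants for 63% of the expressed miRNAs. For miR-127 the share was 0.551% ± 0.0344 in controls and 1.12% ± 0.0545 in mutants, a ratio of 2.04. For miR-434-3p it was 0.471% ± 0.0369 and 1.09% ± 0.164, a ratio of 2.31. At E17 the ratios ran from 0.967 for miR-433 to 1.81 for miR-136, and 2 of the 9, miR-434-5p and miR-136, had shares that were higher in every mutant than in every control, beside 12.5% of the expressed miRNAs.

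For the tests, the log2 median signal of each spot was quantile normalized over the 16 arrays, averaged per probe and fitted with limma over the 681 probes of the 281 expressed miRNAs, with Benjamini-Hochberg adjustment over all of these probes. A call required 2 things of a probe, an adjusted p no higher than 0.05 and a log2 difference no smaller than 0.5 in either direction, and each member is given by its probe with the highest mean signal. This signal still contains the spot's background, so a given fold in RNA gives a smaller log2 difference at a dim probe than at a bright one. Quantile normalization moreover sets all arrays to 1 distribution, and differences are therefore relative to the other miRNAs of the nerve.

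At P4, 4 of the 9 members were called higher in mutants and none lower, beside 10.3% of all expressed miRNAs called higher. The 4 were miR-434-3p, miR-127, miR-337-5p and miR-136. The brightest probe of all 9 members was higher with an adjusted p of 0.05 or less when no limit was set on the size, which was so for 27.4% of the expressed miRNAs. The median difference of the members was 0.45, and that of all expressed miRNAs 0.06. Arrays of the 2 genotypes did not overlap for 6 of the 9 members, beside 24.2% of the expressed miRNAs that were higher without overlap.

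miR-434-3p, cut from the 3′ side of the hairpin shown above, had the largest difference after quantile normalization, whereas miR-136 had it under each of the other 5 scalings described below. Its log2 signal was 8.90, 8.92, 8.63 and 9.01 in controls at P4 and 9.90, 10.13, 9.28 and 10.02 in mutants. The lowest mutant was above the highest control. The mutants were higher by 0.97 (SE 0.179, limma adjusted p = 0.000518), a 1.95-fold difference on this scale, and the second probe gave 0.75 (SE 0.119, limma adjusted p = 0.000162). Without mutant replicate 3, the lowest of its group, the difference was 1.14.

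miR-127, one of the miRNAs first shown to pair with Rtl1 and also known as a repressor of Bcl6, gave a similar picture. In controls at P4 its log2 signal was 9.27, 9.22, 8.91 and 9.18, and in mutants 10.20, 10.05, 9.54 and 10.20. Again no mutant reached down to the controls. The difference of 0.85 (SE 0.153, limma adjusted p = 0.000405) corresponds to 1.80-fold, and its second probe was called too, at 0.51 (SE 0.103, limma adjusted p = 0.00101).

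miR-136 is the other miRNA first shown to pair with Rtl1. Its log2 signals were 6.84, 6.84, 6.62 and 7.16 in controls at P4 and 7.47, 7.77, 7.24 and 7.46 in mutants. Control replicate 4 came close to the lowest mutant but did not reach it. The difference was 0.62 (SE 0.119, limma adjusted p = 0.000649) at this probe and 0.29 at the second one, which did not reach the limit on the size.

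miR-337-5p, from the first hairpin of the group, measured 7.68, 7.61, 7.41 and 7.65 in controls at P4 and 8.24, 8.38, 7.96 and 8.26 in mutants, again without overlap. The difference was 0.63 (SE 0.126, limma adjusted p = 0.000943), and the second probe gave 0.30 (SE 0.0484, limma adjusted p = 0.000194).

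The other 5 members had smaller differences at P4 that stayed below the limit of 0.5. They were 0.45 for miR-434-5p (limma adjusted p = 0.000194), 0.45 for miR-431 (0.0263), 0.31 for miR-337-3p (0.00273), 0.29 for miR-433 (0.0374) and 0.21 for miR-136* (0.00589). Mutants and controls did not overlap for miR-434-5p, from 6.91 to 7.08 in controls and from 7.28 to 7.70 in mutants, and for miR-433, from 6.55 to 6.68 and from 6.70 to 7.03. Single arrays overlapped for miR-431, miR-337-3p and miR-136*. Without mutant replicate 3, miR-431 (0.56) and miR-434-5p (0.50) passed the limit as well and 6 members were called.

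Some of these values rest on dim spots. The brightest probe of miR-136* was well above background on 1 of 4 arrays in controls and in mutants at E17, on 1 of 4 in controls at P4 and on 3 of 4 in mutants at P4, and the other 8 members' brightest probes were so on every array. The second probe of miR-433 and 1 of the 3 probes of miR-337-3p were not well above background on any array. No spot of a member was saturated.

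**Figure D2:**
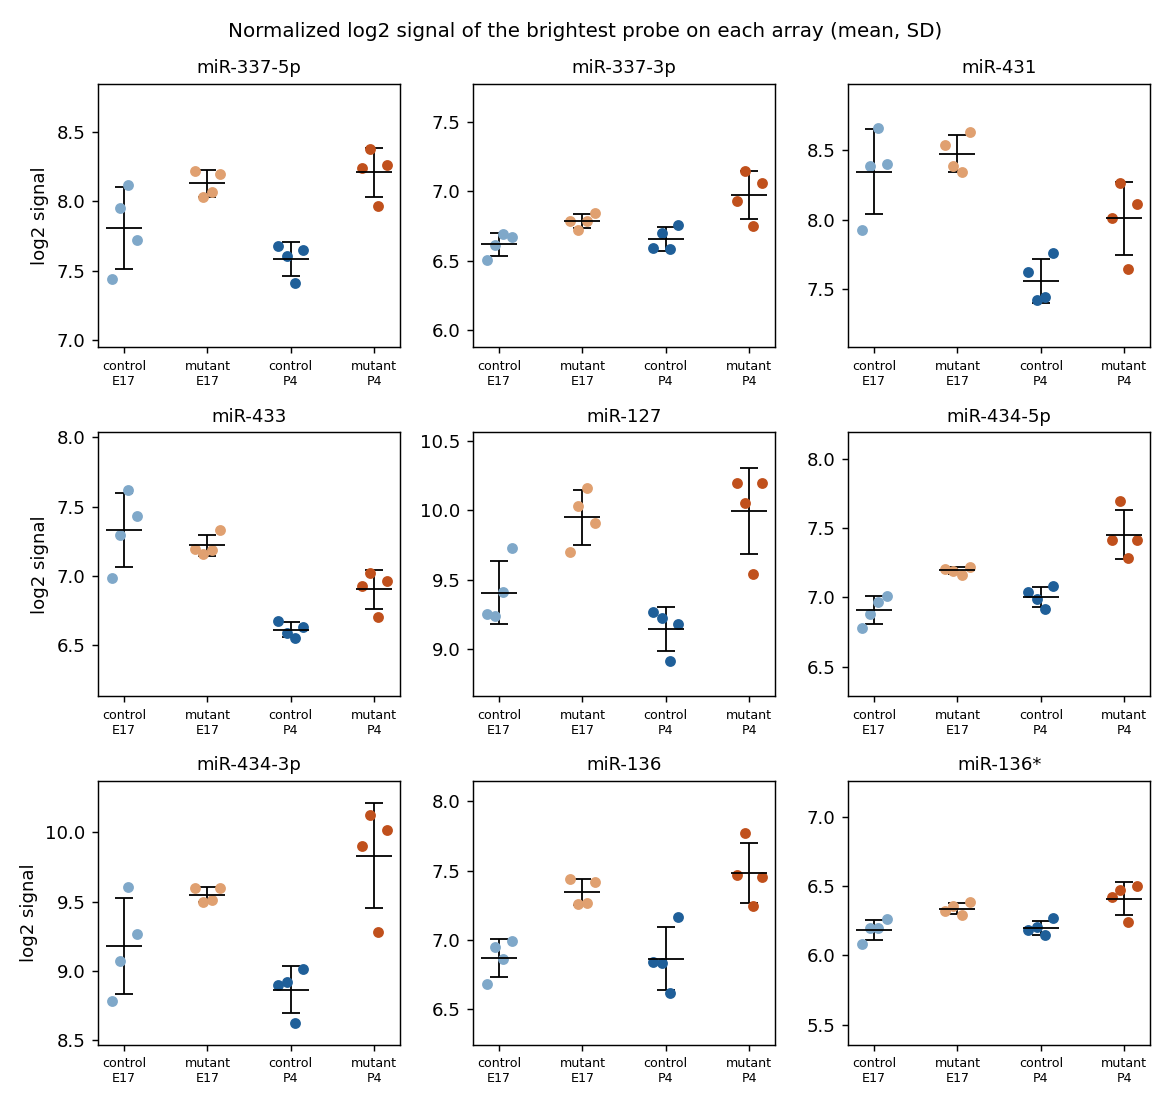
Quantile-normalized log2 signal of the brightest probe of each of the 9 miRNAs on each array, with group means (long ticks) and SD (bars, n = 4); each panel spans the same number of log2 units, at a different level. At P4 the mutants lay above the controls without overlap for miR-337-5p, miR-433, miR-127, miR-434-5p, miR-434-3p and miR-136.

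The calls and the direction at P4 depended on how the arrays were scaled. No member was called without normalization, with the 75th percentile of all probes, with positive controls or in the unscaled gene signal. Of all expressed miRNAs, 0.356, 0.712, 1.42 and 2.49% were called higher in these settings, in this order. With the 75th percentile of detected probes all 9 were called, a setting in which 72.2% of all expressed miRNAs were called higher. All 9 differences were above 0 after quantile normalization (0.21 to 0.97), after scaling by the 75th percentile over probes that were detected on every array (0.76 to 1.13) and after scaling to the positive-control probes (0.17 to 0.54). Without normalization they ran from -0.12 to 0.25 and were below 0 for miR-337-3p, miR-431 and miR-433, and with the 75th percentile of all probes they ran from -0.01 to 0.36 and were below 0 for miR-431. In the unscaled gene signal miR-431 was again below 0, at -0.15. The positive-control probes themselves had a mean log2 signal of 13.84 (SD 0.0539) in controls and 13.54 (SD 0.266) in mutants at P4. Scaling to them thus raised every difference at P4 by 0.297 over no normalization. The choice of scaling moved the median of all 281 expressed miRNAs from -0.45 (unscaled gene signal) to 0.70 (75th percentile of detected probes), with -0.19 for no normalization. Of these 6 settings, 4 add 1 constant per array to the same log2 median signal, or nothing, and so give the same values relative to that median, which leaves 3 distinct comparisons. Relative to the median, all 9 members were higher in mutants at P4 in each of these, by 0.07 to 0.44 in these 4, by 0.15 to 0.90 with quantiles and by 0.29 to 0.89 in the gene signal.

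**Figure D3:**
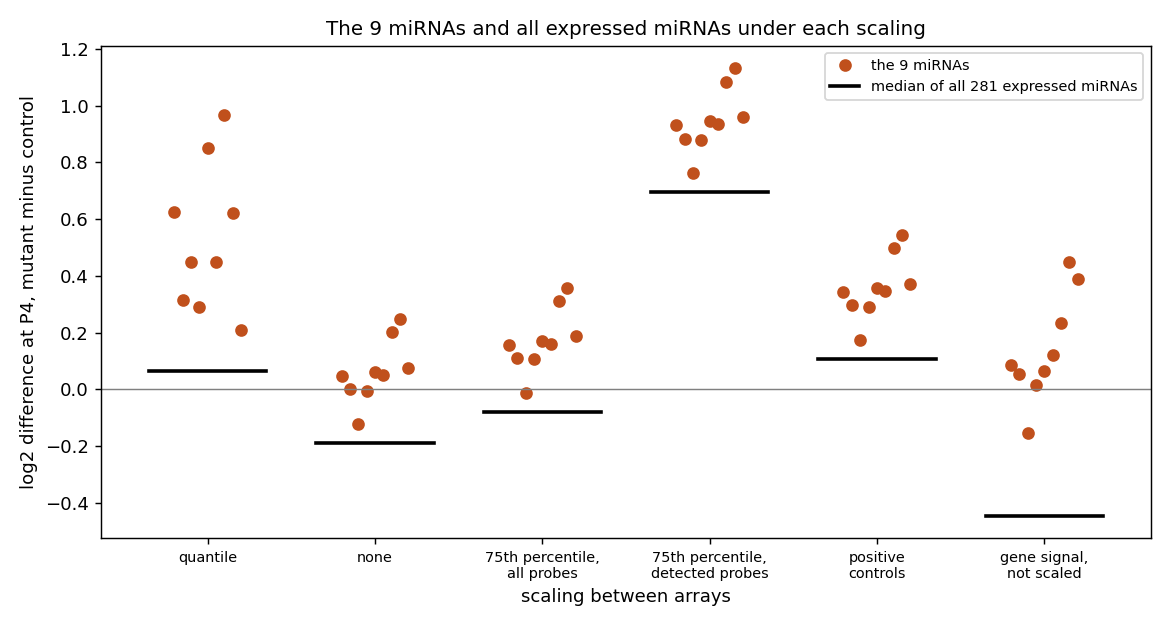
Log2 difference at P4, mutants minus controls, of the 9 miRNAs (points, brightest probe or gene signal) and the median of all 281 expressed miRNAs (black lines) under 6 scalings between arrays. Points fell below 0 for 3 miRNAs without normalization, for miR-431 with the 75th percentile of all probes and for miR-431 in the gene signal, and lay above the black line in every column, by the same distances in the 4 columns that differ by a constant per array.

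At E17, before myelination starts, 1 of the 9 members was called higher in mutants, beside 3.56% of all expressed miRNAs. This was miR-127, with log2 signals of 9.25, 9.24, 9.41 and 9.73 in controls and 9.70, 10.03, 10.16 and 9.91 in mutants. The highest control overlapped the lowest mutant. The difference was 0.54 (SE 0.153, limma adjusted p = 0.0381), and the call rested on single arrays, since the brightest probe lost it when any of 7 of the 16 arrays was left out (control replicates 1, 2 and 3 and mutant replicates 2, 3 and 4 at E17, and control replicate 1 at P4), with differences from 0.48 to 0.65 and an adjusted p of up to 0.125 over all 16 omissions. miR-136 passed the limit when control replicate 2 or 4 or mutant replicate 2 or 3 at E17 was left out, at 0.50 to 0.52.

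For 2 further members the E17 difference passed on the adjusted p but did not reach 0.5, which makes 3 of 9 by their brightest probe and no limit, beside 5.69% of the expressed miRNAs. miR-136 measured 6.68, 6.95, 6.86 and 6.99 in controls and 7.44, 7.26, 7.26 and 7.42 in mutants, without overlap, and differed by 0.47 (SE 0.119, limma adjusted p = 0.0224). miR-434-5p measured 6.78 to 7.01 in controls and 7.16 to 7.22 in mutants and differed by 0.29 (SE 0.073, limma adjusted p = 0.0228). The remaining 6 members differed by -0.11 (miR-433) to 0.37 (miR-434-3p) with adjusted p from 0.0841 to 0.643. Without normalization the 9 differences at E17 ran from 0.02 to 0.50 and with the 75th percentile of all probes from -0.25 to 0.23, 4 of them below 0, so that the direction at this age too changed with the scaling. The values without normalization include mutant replicate 3, whose high signal at a probe not above background is given above.

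**Figure D4:**
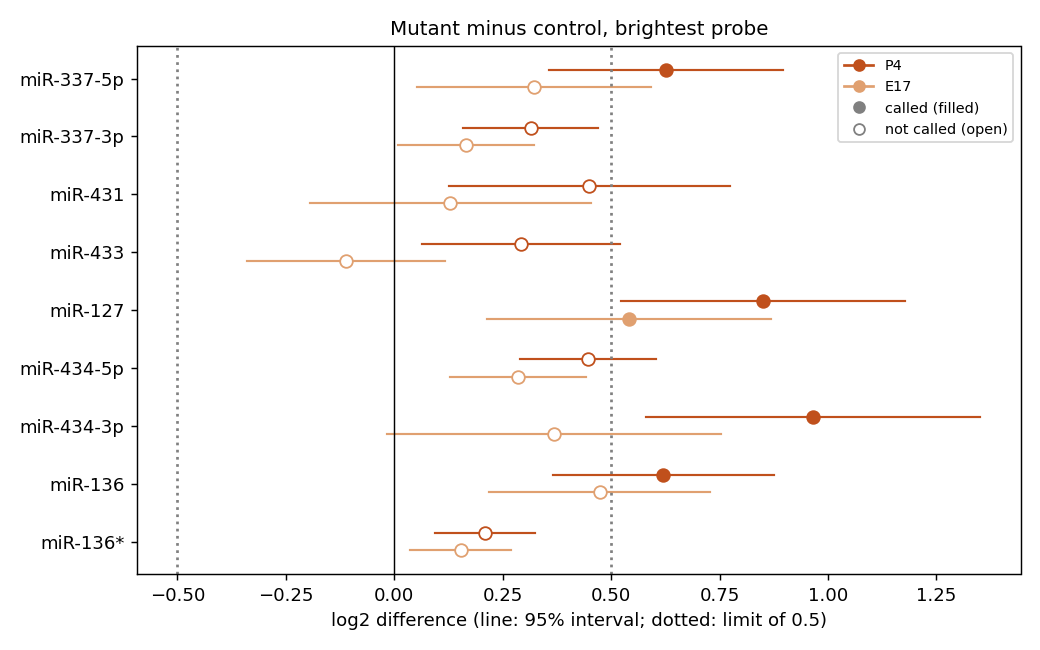
Log2 difference between mutants and controls for each of the 9 miRNAs at P4 and E17 after quantile normalization, with 95% intervals from limma; dotted lines mark the limit of 0.5, and filled points were called. Points are filled for 4 miRNAs at P4 and miR-127 alone at E17; without normalization the P4 differences of miR-337-3p, miR-431 and miR-433 were below 0.

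The estimated genotype difference was larger at P4 than at E17 for all 9 members, by 0.06 for miR-136* to 0.60 for miR-434-3p. It was larger at P4 for 169 of the 281 expressed miRNAs, with a median of 0.05. For none of the 9 did the test of this difference between the ages give a call, beside 9.61% of the expressed miRNAs called in either direction. At an unadjusted p under 0.05, 2 of the 9 passed by their brightest probe, beside 34.2% of the expressed miRNAs in either direction. These were miR-434-3p (SE 0.254, limma adjusted p = 0.137) and miR-433 (0.40, SE 0.150, limma adjusted p = 0.0903). Their 95% intervals, 0.05 to 1.14 and 0.08 to 0.73, leave the size of this difference wide. Leaving out control replicate 1 at E17 gave 2 calls (miR-433 and miR-434-3p), and leaving out mutant replicate 3 at P4 gave 1 (miR-434-3p). Without normalization 8 of the 9 differences between the ages turned below 0, from -0.30 to 0.07, in a setting where the median of all expressed miRNAs was -0.40, and 7 of the 9 did so in the unscaled gene signal.

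With age, 2 neighbouring hairpins stood apart from the others in control nerves. miR-431, known to act on the Wnt antagonist Kremen1 in sensory neurons, measured 7.93, 8.39, 8.66 and 8.40 at E17 and 7.62, 7.42, 7.44 and 7.76 at P4. No P4 array reached the lowest E17 array. The change was -0.79 (SE 0.151, limma adjusted p = 0.00098), or 0.580-fold. miR-433, whose hairpin follows next along the chromosome, measured 6.98, 7.30, 7.62 and 7.43 at E17 and 6.68, 6.59, 6.55 and 6.64 at P4, a change of -0.72 (SE 0.106, limma adjusted p = 0.00011) again without overlap. These 2 of 9 were called lower, beside 12.1% of all expressed miRNAs, and none was called higher.

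The other 7 members differed by -0.32 (miR-434-3p) to 0.09 (miR-434-5p) between P4 and E17 in controls, with adjusted p from 0.181 to 0.966. Their share of the summed signal at P4 was 0.613 to 0.789 of that at E17, whereas it was 0.405 of that at E17 for miR-431 and 0.271 for miR-433. In the unscaled gene signal the median log2 change of all expressed miRNAs was 1.01. Relative to this median the 7 lay between -0.23 and 0.12, and miR-431 and miR-433 at -0.82 and -1.38. The signed change of all members depended on the scaling. Without normalization, 8 of the 9 were higher at P4, by up to 1.09, miR-431 among them at 0.24, and miR-433 was at -0.06, beside a median of 0.57 for all expressed miRNAs. Scaled to the positive controls, all 9 were lower, by values from -0.36 to -1.51, beside a median of -0.88. The positive-control probes themselves had a mean log2 signal of 12.39 in controls at E17 and 13.84 at P4, on different slides.

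In mutant nerves none of the 9 was called with age, beside 10.7% of the expressed miRNAs called in either direction. At an unadjusted limma p under 0.05, 4 of the 9 passed by their brightest probe, beside 45.9% of the expressed miRNAs, and 3 of the 9 passed on the adjusted p with a size under the limit, beside 34.5% of the expressed miRNAs with no limit. These 3 were miR-431 (-0.47, SE 0.151, limma adjusted p = 0.0327), miR-433 (-0.32, SE 0.106, limma adjusted p = 0.0389) and miR-434-5p (0.26, SE 0.073, limma adjusted p = 0.0178). miR-431 became a call when mutant replicate 3 at E17, or mutant replicate 2 or 4 at P4, was left out, at -0.52, -0.54 and -0.50. The methods' t-test gave 3 of 9 at an unadjusted p under 0.05 and 0 after Benjamini-Hochberg adjustment.

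**Figure D5:**
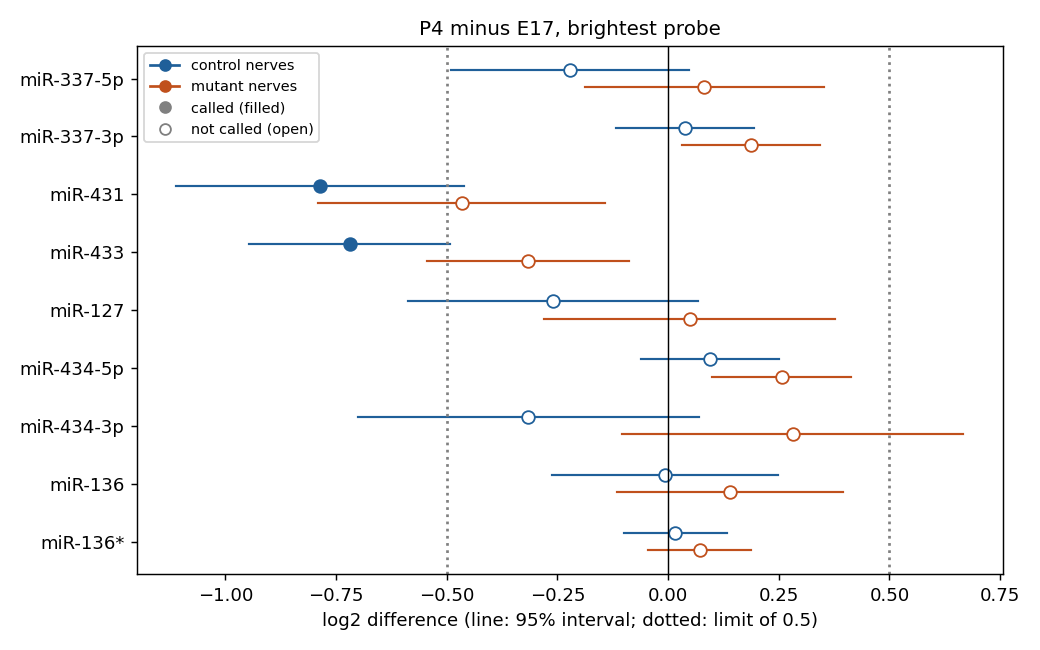
Log2 difference between P4 and E17 for each of the 9 miRNAs in control and mutant nerves after quantile normalization, with 95% intervals from limma; dotted lines mark the limit of 0.5 and filled points were called. miR-431 (-0.79) and miR-433 (-0.72) were called in controls, and without normalization miR-431 was above 0 at 0.24.

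Over the 4 groups, the order of the levels differed between members. For miR-127 the mutants at P4, with a range of 9.54 to 10.20, came first, followed by means of 9.95 ± 0.197 in mutants at E17, 9.41 ± 0.227 in controls at E17 and 9.15 ± 0.159 in controls at P4 (SD, n = 4 each). The ages were not called apart in mutants (limma adjusted p = 0.87) or in controls (limma adjusted p = 0.197). For miR-434-3p the order was the same, from 9.83 ± 0.377 through 9.55 ± 0.0545 and 9.18 ± 0.347 to 8.87 ± 0.167. For miR-136 the mutants at P4 (7.48 ± 0.217) and at E17 (7.34 ± 0.0971) lay above the controls at E17 (6.87 ± 0.138) and at P4 (6.86 ± 0.226), and the ages did not differ beyond the error in mutants (0.14, SE 0.119, limma adjusted p = 0.437) or in controls (limma adjusted p = 0.966). miR-431 and miR-433 followed another order, with both E17 groups (8.34 ± 0.306 and 8.47 ± 0.133 for miR-431 in controls and mutants) above the mutants at P4 (8.01 ± 0.265) and the controls at P4 lowest (7.56 ± 0.16). Neither miRNA was called between the genotypes at E17 (limma adjusted p = 0.643 for miR-431). The remaining members had the mutants at P4 first and the mutants at E17 next. For miR-337-5p these were 8.21 ± 0.176 and 8.13 ± 0.0944, above 7.81 ± 0.296 in controls at E17 and 7.59 ± 0.12 in controls at P4. For miR-434-5p they were 7.45 ± 0.174 and 7.19 ± 0.0239, above the controls at P4 (6.91 to 7.08) and 6.91 ± 0.101 in controls at E17, and miR-337-3p and miR-136* had the same order as miR-434-5p, between 6.62 and 6.97 and between 6.18 and 6.41.

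For 3 hairpins both arms were measured, so one arm can be set against the other within an array. On the quantile-normalized log2 median signal, the 3p minus 5p difference of miR-434 was 1.86 ± 0.105 in controls at P4 and 2.38 ± 0.263 in mutants (SD, n = 4 each), a change of 0.52. For miR-136 and miR-337 the changes were -0.41 and -0.31. Each gave p = 0.0286 in an exact two-sided permutation test, the smallest p that 70 assignments of the arrays allow, and an adjusted p of 0.0686 over the 12 tests of this kind, so none passed. Before normalization, where a scaling by a constant per array cancels, the miR-434 difference was 2.33 ± 0.0937 in controls at P4 and 2.48 ± 0.199 in mutants, a change of 0.15, and the changes for miR-136 and miR-337 were -0.17 and -0.05 (exact permutation p = 0.229, 0.314 and 0.457 for the 3 hairpins in this order). Each change was thus smaller than after quantile normalization. In the background-subtracted gene signal the same changes were 0.11, -0.06 and -0.03 (exact permutation p = 0.257, 0.743 and 0.657). The arm with the dimmer probe had the smaller difference in each hairpin on the quantile-normalized signal, which contains background, and the ratios of the arms' shares at P4 were 2.12 and 2.31 for miR-434, 2.59 and 2.52 for miR-136, and 2.07 and 2.02 for miR-337 (5p and 3p). The cause of the changes between the arms was not tested.

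The profile over the 16 arrays most like that of miR-127, the brightest member, was that of miR-329 (Pearson r = 0.951), followed by miR-199a-5p (0.943), miR-381 (0.938), miR-335-5p (0.922) and miR-300 (0.891). Of these 5, miR-329, miR-381 and miR-300 come from the same locus downstream of the Rtl1 antisense hairpins. Among the 20 most like of 272 other expressed miRNAs, 13 were from the locus. Within the group, r with miR-127 ran from 0.395 for miR-433 and 0.534 for miR-431 to 0.88 for miR-434-3p. These are descriptions over 16 arrays that share their normalization and fall into 4 groups.

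The rest of the Dlk1-Dio3 locus was taken from a list of 65 further names on the array, of which 37 were expressed. At P4, 36 of the 37 had a difference above 0 with a median of 0.34, and 10 were called higher and none lower, led by miR-299* (0.93), miR-300 (0.88), miR-154 (0.86), miR-329 (0.82) and miR-379 (0.81). Of all 281 expressed miRNAs, 162 had a difference above 0 and 10.3% were called higher. At E17 the median was 0.15 and 1 was called higher, miR-379 (0.62, limma adjusted p = 0.0228), beside 3.56% of the expressed miRNAs. In controls, 5 of the 37 were called lower at P4 than at E17, beside 12.1% of the expressed miRNAs, and none higher. The 5 were miR-495 (-0.82), miR-543 (-0.63), miR-300 (-0.60), miR-370 (-0.59) and miR-410 (-0.57). The 9 members and these 37 were thus described by the same counts, and no test set one list against the other.

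Some lists of miRNAs for other cell types held a larger share of the signal in mutants and others did not, and their part in the result was not tested. The list for fibroblasts and smooth muscle (6 miRNAs, miR-145 undetected) held 4.21 to 4.89% of the summed signal in controls at P4 and 9.42 to 12% in mutants, and 4.53 to 7.58% and 8.83 to 9.81% at E17, with 4 of its 5 expressed miRNAs called higher at each age. Endothelial miRNAs (miR-126-3p and miR-126-5p) held 0.908 to 1.55% in controls and 1.55 to 1.81% in mutants at P4, with 1 of 2 called higher. Leukocyte miRNAs held 0.173 to 0.222% and 0.43 to 0.725%, with 1 of 3 expressed called higher and miR-142-5p and miR-150 undetected. Erythroid miRNAs ranged from 0.167 to 1.13% and from 0.542 to 1.95% at P4 with 1 of 3 called higher, and in the neuron list 2 of 5 were called lower and none higher, while the skeletal muscle list had none called in either direction. In the Schwann list, 3 of 3 expressed miRNAs were called lower at P4 and none at E17. The erythroid and leukocyte lists each had 1 called higher at E17, and the endothelial, neuron and skeletal muscle lists had none. Endothelial miRNAs nevertheless held 0.73 to 1.02% in controls and 1.11 to 1.46% in mutants at E17. Leukocyte miRNAs held 0.223 to 0.293% and 0.353 to 0.421%. The genotypes overlapped at E17 in the shares of the erythroid (1.74 to 5.44% and 5.38 to 12.2%), neuron and skeletal muscle lists. Of all expressed miRNAs, 10.3% were called higher and 10.7% lower at P4, and 3.56% higher and 2.49% lower at E17.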

How the data were processed

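Total RNA of sciatic nerves (miRNeasy, Qiagen) was labeled with Cy3 and hybridized to 1 Agilent mouse miRNA array per mouse, at an input that the study's methods give as equal for all arrays. The authors deposited the scanner output of Agilent Feature Extraction 10.5.1.1 for each array, which holds spot intensities with and without background subtraction, not normalized between arrays, and a table of quantile-normalized probe intensities. The headers give array design 021828, and its genome build is not given in the sources used here. Groups follow the labels.

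Following the study's methods, log2 median signals of 13000 miRNA spots were quantile normalized, averaged per probe without spots flagged as outliers, and reduced to 681 of 1857 probes by the detection rule. Means of the 4 groups were fitted to all 16 arrays with limma 3.58.1 in R 4.3.3 (lmFit, eBayes) and the methods' t-test was an alternative. A miRNA was called where 1 or more of its probes passed both limits and no probe passed them in the opposite direction. The steps were tested on simulated data. Named are all 9 members, the 5 other miRNAs most like the brightest member, and up to 5 locus miRNAs per contrast and direction, by size among the called. Shares are percent of the summed gene signal, negative values at 0. Members, lists and tests were chosen with earlier results of these data known. Sequences and positions are from RefSeq. The number of arrays, 4 per group, limits the precision.

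Alternatives covered normalization, signal, the deposited intensities, filter, test, array weights, arrays in the fit, a replicate block, the rule for several probes, the limit and leaving out each array. Normexp on the median signal, scaling to 20 positive-control probes, the unscaled gene signal (for the arms too) and differences relative to the median of all expressed miRNAs were added after seeing the data.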

Additional observations from a re-analysis of the deposited data

How the results depend on the processing

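The count of members called moved with the scaling between arrays and with the limit on the size. Counts are given for P4 mutants against controls (4), E17 mutants against controls (1), P4 against E17 in controls (2), P4 against E17 in mutants (0) and the difference between the 2 genotype differences (0), in this order throughout. It became 0, 0, 6 higher, 3 and 0 without normalization. With the 75th percentile of detected probes it was 9, 2, 7 lower, 1 and 5, with that of all probes 0, 0, 2 higher, 3 and 0, and with the processed signal, which changes the signal and the scaling together, 9, 5, 3 lower, 4 and 6. The added settings gave 2 and 1 for P4 mutants against controls and for age in controls with normexp, 0, 0, 9 lower and 8 lower with positive controls, and 0, 0, 7 higher and 5 higher in the unscaled gene signal. With no limit on the size the counts were 9, 4, 2, 4 and 0, with a limit of 1 they were all 0, and with the mean over probes 2, 0, 1, 0 and 0. The E17 call was 0 with no filter and with the methods' t-test after adjustment. The last count was 2 with the deposited intensities and 1 with array weights. Several of these settings called most expressed miRNAs, with 72.2% higher at P4 and 70.1% lower with age in controls for the 75th percentile of detected probes, 79.4 and 92.9% lower with age in controls and mutants for positive controls, 57.3% higher with age in controls without normalization and 65.5% in the gene signal. At P4, 45.6% were called higher with the processed signal and 29.5% with no limit. It was 7.47% with the mean over probes and 6.76% with normexp. With age in mutants, 20.3% were called higher both without normalization and with the 75th percentile of all probes, and 38.1% in the gene signal. With age in controls, 32.7% were called higher with the 75th percentile of all probes, and 35.2% lower with the processed signal. In the same comparison 23.1% were called lower with no limit, 6.76% with the mean over probes and 6.41% with normexp. At E17, 12.5% were called higher with the processed signal and 8.19% with no limit. For the difference, 16.7% were called higher with the 75th percentile of detected probes and 22.8% with the processed signal. It was 6.05% with the deposited intensities and 11.4% with array weights. The counts of 4 with age in mutants were 2 higher and 2 lower. Beside them, 24.6% were higher and 17.8% lower with no limit, and 18.9 and 17.8% with the processed signal. The 75th percentile of detected probes called 8.9% higher at E17 and 7.12% higher with age in mutants. The cause of these shifts was not tested.

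Counted over all 9 members in the same order of comparisons, the sign differed from that after quantile normalization for 3, 1, 5, 1 and 8 without normalization, 1, 3, 4, 1 and 0 with the 75th percentile of all probes, 0, 1, 3, 3 and 0 with that of detected probes, 0, 1, 3, 7 and 3 with positive controls and 1, 1, 5, 1 and 7 in the gene signal. The turns reached from -0.26 to 1.09 for miR-127 and from -0.32 to 0.99 for miR-434-3p with age in controls without normalization. Among P4 differences and those with an adjusted p within the threshold, signs turned without normalization for miR-337-3p (-3e-04), miR-431 (-0.12) and miR-433 (-0.0052) at P4, and for miR-431 with age (0.24 in controls, 0.0903 in mutants). They turned with the 75th percentile of all probes for miR-431 at P4 (-0.012) and with age in mutants (0.10), with positive controls for miR-434-5p with age in mutants (-0.68), and in the gene signal for miR-431 at P4 (-0.15) and with age (0.19 and 0.10).

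Leaving out 1 array at a time gave 4 to 6 calls at P4, 0 to 2 at E17 (0 without control replicate 1 or 3 or mutant replicate 4 at E17, or control replicate 1 at P4; 2 without control replicate 4 at E17), 2 with age in controls, 0 to 1 in mutants and 0 to 2 for the difference, and 0 for the arms. The difference in share at P4, 1.67 percentage points, was 0.763 when median spot signals were summed. Same-numbered mice did not deviate together in every pair (r from -0.615 to 0.438), and the labels do not tie the numbers to the littermate pairs that the methods describe, so whether the numbers mark those pairs stayed unsettled. The replicate block left the counts at 4, 1, 2, 0 and 0. Normexp on the mean spot signal was not run, and the median signal was used in its place, and miR-136* has no value when detection on every array of a group is required. Probes near background bound what can be seen for miR-136*.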
